A study of Homo sapiens with 6 samples.

Results

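The gelsolin family and its partners in actin turnover were followed as 9 listed genes, of which 8 were analysed and 6 had enough signal to be tested, in a table of 29810 genes. The gelsolin family members were GSN, CAPG, FLII, SVIL, SCIN, VIL1 and AVIL, and CFL1 and PFN1 were added as the main cofilin and profilin genes. SCIN was not analysed here. The list was selected on results of these same libraries as well as on gene function, the measured values in view being the levels and the I1 against control differences. The differences of the members between the groups are therefore given as a description and support nothing.

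RNA was measured in Kasumi-1, an established human acute myeloid leukaemia line that carries the RUNX1-RUNX1T1 fusion gene. The 3 control libraries came from cells kept with the control agent for 48 h, and the 3 I1 libraries from cells kept with I1 at 0.125 µM for 48 h. The labels give I1 only by this code and do not say what the control agent was. All 6 libraries share the line, the time and the poly(A) library kit, and the labels do not say whether replicates were grown separately. A p-value here thus sets the group difference only against the scatter of these samples, part of which may be technical.

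Actin filaments grow mainly at one end, the barbed end, and lose subunits at the other, and the proteins studied here set how fast that cycle runs. Gelsolin family proteins are built from repeated gelsolin-homology domains, and many of them sever filaments or cap barbed ends when calcium rises and let go on binding phosphoinositides. Cofilin severs aged filaments and speeds the loss of their subunits, and profilin reloads the freed monomers with ATP and hands them to formins and Ena/VASP proteins for regrowth. In white blood cells this cycle drives crawling, engulfment and change of shape.

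The promoters of GSN, FLII and SVIL are shown first, because GSN and FLII had lower levels with I1, SVIL did not, and the starts of GSN lie in stretches of very different base composition. RefSeq (GRCh38.p14) gives 6 starts for GSN, 1 for FLII and 4 for SVIL, and the values per gene do not tell the starts of a gene apart. Each sequence runs 5′ to 3′ on the strand of its gene, from within the 250 bases before a start, trimmed to bases outside every exon of the GENCODE v29 annotation. Capitals mark matches, on either strand, of 4 motifs: the GC box (GGGCGG), the TATA element (TATAAA), the CArG box that serum response factor binds, and the pentamer of nuclear factor Y (CCAAT). Overlapping matches run together in capitals, and the letters of the TATA element can also fall within a CArG box. The GSN windows shown are the one with the most GC boxes of the 6, the one with a TATAAA match and the one with CCAAT matches.
GSN, chr9:121267912-121268059, plus strand: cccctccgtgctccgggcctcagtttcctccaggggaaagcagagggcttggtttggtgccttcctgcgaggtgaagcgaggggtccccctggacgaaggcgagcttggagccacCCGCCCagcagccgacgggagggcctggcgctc
GSN, chr9:121285855-121286104, plus strand: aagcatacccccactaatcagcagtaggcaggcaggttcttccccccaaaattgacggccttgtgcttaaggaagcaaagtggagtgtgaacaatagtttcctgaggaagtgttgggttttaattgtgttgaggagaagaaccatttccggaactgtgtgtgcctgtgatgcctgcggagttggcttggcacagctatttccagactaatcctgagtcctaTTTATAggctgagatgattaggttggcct
GSN, chr9:121286299-121286548, plus strand: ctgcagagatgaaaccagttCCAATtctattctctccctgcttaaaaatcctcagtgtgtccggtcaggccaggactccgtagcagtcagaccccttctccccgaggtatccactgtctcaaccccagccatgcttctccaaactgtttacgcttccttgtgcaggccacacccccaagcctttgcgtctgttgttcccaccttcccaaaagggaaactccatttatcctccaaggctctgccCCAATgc
FLII, chr17:18258917-18258988, minus strand: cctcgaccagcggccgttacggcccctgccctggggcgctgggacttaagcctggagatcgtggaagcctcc
SVIL, chr10:29634973-29635221, minus strand: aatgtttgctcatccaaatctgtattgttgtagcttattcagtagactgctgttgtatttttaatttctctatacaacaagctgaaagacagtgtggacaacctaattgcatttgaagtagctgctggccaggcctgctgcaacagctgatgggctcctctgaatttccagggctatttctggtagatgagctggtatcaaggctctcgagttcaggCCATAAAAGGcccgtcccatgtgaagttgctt

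The first GSN stretch belongs to a window of 77.6% GC, against 47.6% and 53.2% for the second and the third, and all 6 GSN windows spanned 47.6% to 78.8%. The FLII window had 70.8% GC. The SVIL window, shown because it holds the CArG box, had 44.4%, and the other 3 SVIL windows had 72.4% to 77.2%. The full first GSN window holds 7 GC boxes, 1 of them in the printed stretch, and the full FLII window holds 2, both within exon bases that are not printed. Over the 19 windows of the 8 members found in RefSeq, SCIN included and VIL1 without an entry, the median GC content was 64.4%, against 58.0% for all 35116 RefSeq promoter windows of that length. GGGCGG was found in 10 of the 19 windows and in 42.6% of all windows, CCAAT in 5 of 19 and in 32.0%, and TATAAA in 2 of 19 and in 10.7%. The CArG box was found in 1 of the 19 windows, that of SVIL, and in 1.16% of all windows. These matches describe letters, not bound sites. The windows of PFN1 and CFL1 lie inside annotated exons and are not printed.

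The values are in FPKM (fragments scaled to gene length and library size). The library size behind them, worked out from the steps between the lowest values, was 16391000 to 18204000 fragments, so that 1 fragment over 1 kb was worth 0.0549 to 0.0610 FPKM. Markers of the line were present: all 6 of KIT, CD34, RUNX1, RUNX1T1, MPO and CD33 were above the filter, with a summed level of 7277 to 9653 FPKM in the controls and 6659 to 7389 with I1, most of it MPO. Summed levels over the marker lists of other cells were 2.51 to 6.18 FPKM (control) and 1.94 to 4.43 (I1) for macrophages, 1.34 to 2.76 and 1.84 to 2.68 for megakaryocytes, 4.21 to 6.00 and 4.14 to 5.41 for lymphocytes, and 0.182 to 0.277 and 0.0955 to 0.205 for fibroblasts. The epithelial list summed to 23.2 to 27.6 and 26.7 to 31.3 FPKM, nearly all from EPCAM, while KRT8 was at 0 in every library. These lists had 6 genes each, but the sums cover only those analysed. They were 4 for macrophages, 5 for megakaryocytes, 5 for lymphocytes, 3 for fibroblasts and 3 for epithelium. Control replicate 1 stood apart on the first principal component, at -43.8 against -2.90 to 19.8 for the other 5, on an axis that held 52.1% of the variance. Across the 11899 tested genes with a known base composition, the I1 against control difference moved with GC content (Spearman correlation -0.763, across genes, which are not independent replicates), and so did control replicate 1 against the other controls (0.677). GC-corrected values are therefore given beside the members' differences.

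In FPKM the members ran from barely detected to among the higher genes of the table, and the order of their levels was the same in all 6 libraries: PFN1 highest, then CFL1, GSN, FLII, SVIL, AVIL, CAPG and VIL1. PFN1 was at the 97.4th percentile of the tested genes, CFL1 at 96.1, GSN at 94.3 and FLII at 86.6. The top of this order depends on the gene length used. The lengths behind the deposited FPKM were not given and are inferred from GENCODE v29, which gave whole reads in most low genes. By these, GSN was divided by all 11018 of its annotated exon bases, CFL1 by 5863 and PFN1 by 1987. The longest principal transcripts measure 2657, 1878 and 1291 bases. Per kilobase of those transcripts, a scale added after the data were seen, CFL1 stood at 237 ± 8.51 (SD, n = 3), GSN at 243 ± 23.2 and PFN1 at 160 ± 2.58 in the controls, and at 202 ± 22.7, 173 ± 22.4 and 135 ± 19.9 with I1. On that scale GSN was above CFL1 in 3 libraries and below it in 3, and the levels did not differ beyond their spread. Both were above PFN1 in all 6 libraries. FLII (41.8 ± 5.30 in the controls), SVIL (4.82 ± 0.384) and AVIL (2.30 ± 1.09) kept their places.

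**Figure D1:**
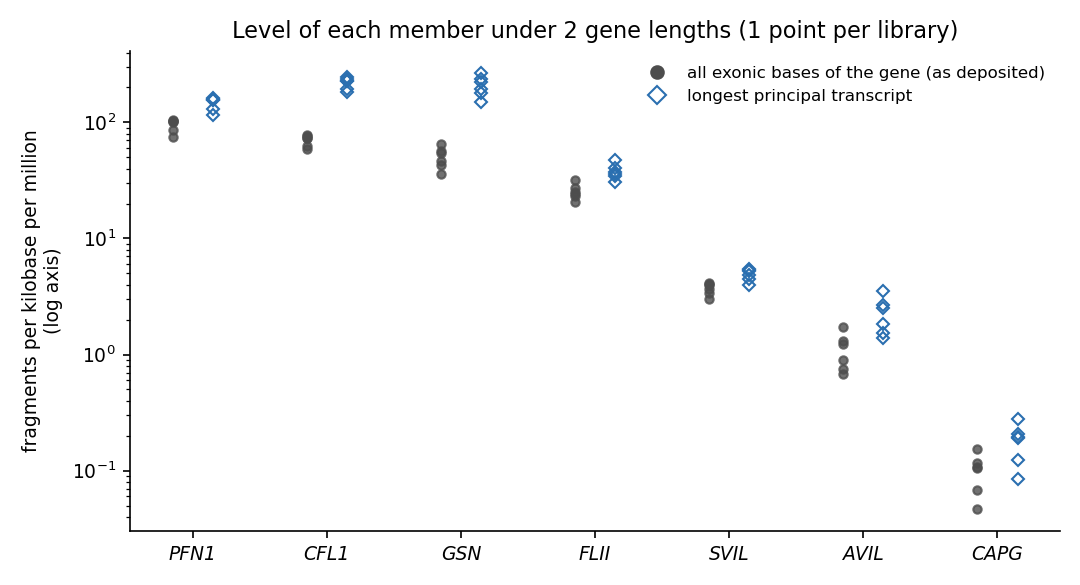
Level of 7 members in each of the 6 libraries (log axis, fragments per kilobase scaled to library size), with all exonic bases as the length (filled circles, as deposited) and with the longest principal transcript (open diamonds). PFN1, CFL1 and GSN change places between the scales, while FLII, SVIL, AVIL and CAPG keep theirs.

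GSN (ENSG00000148180, chr9:121207794-121332843, plus strand) encodes gelsolin, the calcium-activated protein that severs filaments and then caps the new barbed end. Its level was 64.8, 54.2 and 56.5 FPKM in control replicates 1 to 3 and 46.6, 42.8 and 35.9 with I1. Every I1 library lay below every control. The means were 58.5 ± 5.59 and 41.8 ± 5.39 FPKM (SD, n = 3), so that I1 libraries held 71.4% of the control level, and the log2 fold change was -0.48 ± 0.138 (SE, on log2(FPKM + 1)). The reads behind these levels were 13004, 10347 and 11018 (controls) and 8407, 7999 and 6579 (I1), so that counting error was far smaller than the spread between libraries. GSN had the greatest log2 fold change in size of the 6 tested members, and 1.08% of all tested genes had a lower fold change. Its transcripts hold 56.6% GC. With the trend over GC content removed in each library the difference was -0.34 ± 0.103, and 2.45% of the tested genes lay lower. In bulk RNA, fewer cells with gelsolin and less gelsolin RNA per cell cannot be told apart.

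FLII (ENSG00000177731, chr17:18244836-18258916, minus strand) encodes flightless I, which joins gelsolin-like domains to leucine-rich repeats and also acts as a coactivator of nuclear receptors. The controls had 32.0, 25.1 and 27.0 FPKM and the I1 libraries 24.2, 20.7 and 23.1. The groups did not overlap, although control replicate 2 and I1 replicate 1 were less than 1 FPKM apart. The I1 mean of 22.7 ± 1.82 was 80.9% of the control mean of 28.0 ± 3.55, a log2 fold change of -0.29 ± 0.132. After the GC correction it was -0.12 ± 0.0871, in transcripts of 59.4% GC. Control replicate 1, the library that stood apart, was the highest for FLII, and without it the fold change was -0.19.

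SVIL (ENSG00000197321, chr10:29457338-29736781, minus strand) encodes supervillin, a membrane-bound family member that ties myosin II and actin filaments to the cell cortex. It was measured at 3.69, 3.39 and 3.97 FPKM in the controls and at 4.17, 4.05 and 3.03 with I1. The highest and the lowest value were both I1 libraries, so the groups overlapped. The log2 fold change was 0.01 ± 0.145, and its sign depended on the scaling: -0.02 with median-of-ratios, -0.03 with trimmed-mean and -0.08 with quantile scaling.

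AVIL encodes advillin, a villin-like protein best known from sensory neurons (ENSG00000135407, chr12:57797376-57818704, minus strand). Its level was 0.746, 0.901 and 1.74 FPKM in the controls and 1.23, 0.681 and 1.32 with I1, from 68 to 181 reads a library. The groups overlapped across almost their whole range, and the fold change was -0.02 ± 0.225. Without control replicate 3, the highest library, it was 0.17, and without I1 replicate 2, the lowest, 0.12.

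CAPG and VIL1 were under the filter of 1 FPKM in at least 3 libraries and were not tested. CAPG (ENSG00000042493, chr2:85394748-85418432, minus strand) encodes the macrophage capping protein, which caps barbed ends without severing. Its reads were 5, 7 and 5 in control replicates 1 to 3 and 2, 3 and 5 in the I1 replicates, that is 0.0468 to 0.155 FPKM over the 6 libraries. The ratio of I1 to control, scaled to depth, was 0.627 with an exact 95% interval of 0.256 to 1.45, which covers counting error only and holds 1. VIL1 (ENSG00000127831, chr2:218419092-218453295, plus strand) encodes villin, the bundling and severing protein of intestinal microvilli. It had 1 read in control replicate 3 and 0 in the other 5 libraries, where a count of 0 allows up to 3 reads, and 44.0% of its exon bases are shared with USP37 on the opposite strand.

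CFL1 (ENSG00000172757, chr11:65823022-65862026, minus strand) encodes cofilin-1, the main filament-severing and depolymerising factor of non-muscle cells. Its level was 76.1, 78.5 and 73.0 FPKM in the controls and 59.0, 72.9 and 62.2 with I1. All I1 libraries lay below all controls, but I1 replicate 2 came within 1 FPKM of control replicate 3. The means were 75.9 ± 2.73 and 64.7 ± 7.26 FPKM, a log2 fold change of -0.23 ± 0.122 that stood at -0.11 ± 0.117 after the GC correction.

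PFN1 (ENSG00000108518, chr17:4945652-4949061, minus strand) encodes profilin-1, the ubiquitous actin monomer carrier. The controls lay close together at 104, 105 and 102 FPKM, whereas the I1 libraries were spread over 75.5, 101 and 85.6. I1 replicate 2 was again within 1 FPKM of the lowest control. The means of 104 ± 1.68 and 87.4 ± 12.9 FPKM gave a log2 fold change of -0.25 ± 0.134. After the GC correction it was -0.09 ± 0.140, and without I1 replicate 1, the lowest library, it was -0.15.

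**Figure D2:**
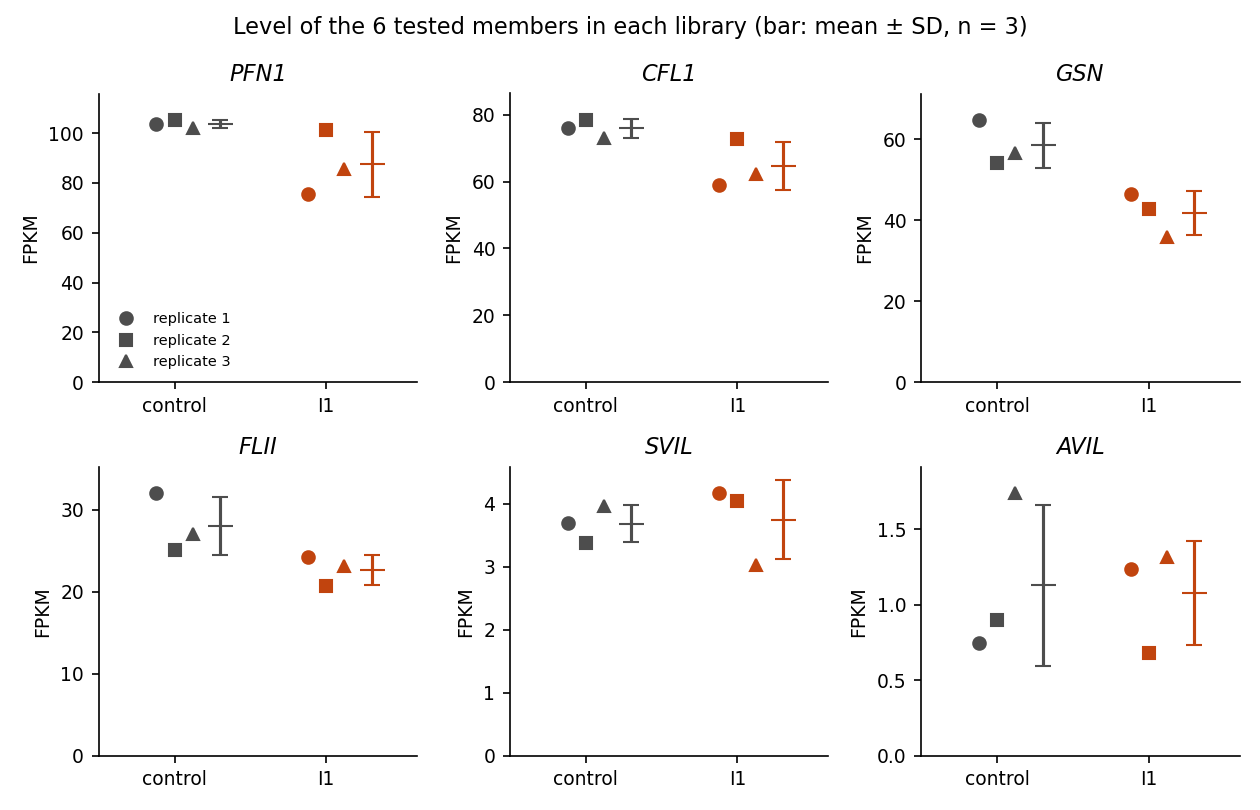
Level (FPKM, axes from 0) of the 6 tested members in each library, with symbols for replicates 1 to 3 and the mean ± SD of each group (n = 3). For GSN, FLII, CFL1 and PFN1 the I1 libraries sit below the controls, by a wide gap for GSN (46.6 against 54.2) and a narrow one for the others, and for SVIL and AVIL the groups overlap.

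Across all genes, limma on log2(FPKM + 1) with Benjamini-Hochberg adjustment called 4 of 11913 tested genes at an adjusted p under 0.05 and a change of 1 or more on the log2 scale in either direction, which is 0.0336% of them. All 4 were higher with I1, and 1140 genes had an unadjusted p under 0.05. None of the 6 tested members was called by limma (0 of 6), and 1 of them, GSN, had an unadjusted p under 0.05. The limma adjusted p was 0.467 for GSN, FLII, CFL1 and PFN1 and 0.967 for SVIL and AVIL. All 3 I1 libraries lay below all 3 controls for 4 of the 6 members, against 8.74% of all tested genes, and above them for 0 of 6, against 12.9%. The median log2 fold change of the 6 was -0.24, beside 0.03 for all tested genes, and -0.10 beside -0.00 after the GC correction. Since the members were selected with this contrast known, nothing is read from these counts.

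The same-numbered libraries deviated together from their group means (r = 0.476, 0.457 and 0.412), so the pairs are given as well. Different numbers had r of -0.348 to -0.0987. Deviations from a group mean cancel out within the group, so positive same-number values force negative ones elsewhere, and that range adds no separate evidence. Lower values with I1 in all 3 pairs were found for 4 of the 6 members and for 25.8% of all tested genes. The GSN differences were -0.47, -0.33 and -0.64 on the log2 scale in pairs 1 to 3, and -0.28, -0.26 and -0.49 after the GC correction. FLII gave -0.39, -0.27 and -0.22, and -0.12, -0.19 and -0.04 once corrected. CFL1 gave -0.36, -0.11 and -0.23, and -0.19, -0.04 and -0.09 once corrected. For these 3 genes each pair was lower on both scales, by less after the correction. PFN1 gave -0.45, -0.06 and -0.25, but -0.21, 0.02 and -0.09 once corrected, so that its second pair had the other sign. SVIL and AVIL had pairs of both signs. A replicate block in the fit gave a limma adjusted p of 0.140 for GSN, 0.141 for FLII, 0.156 for CFL1 and 0.163 for PFN1. With the block and the GC correction the limma adjusted p was 0.227, 0.365, 0.407 and 0.514 in the same order. The block lowered p-values across the table: 3227 genes had an unadjusted limma p under 0.05 with it, against 1140 without.

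**Figure D3:**
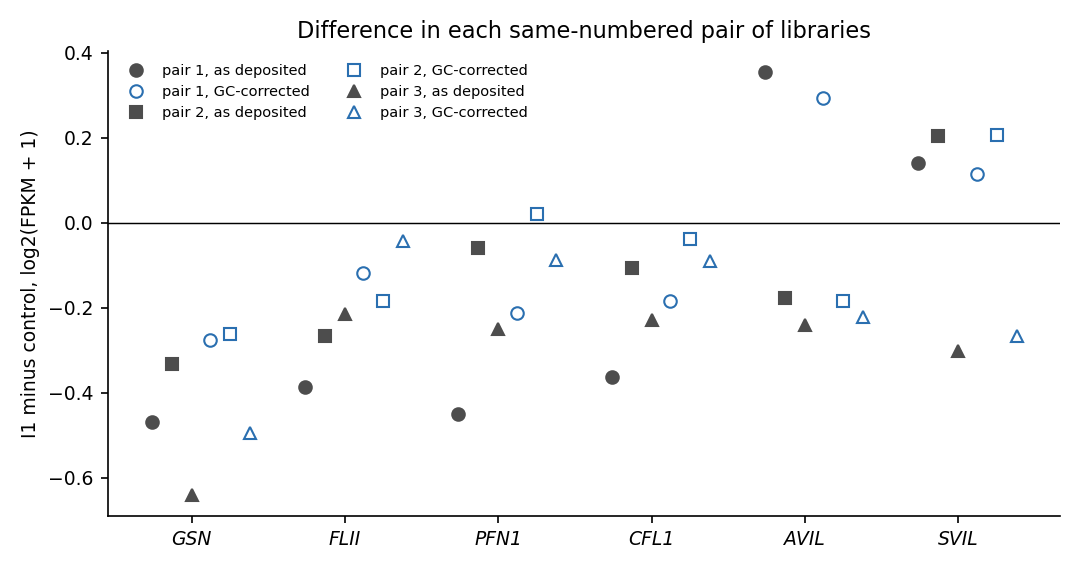
I1 minus control in each same-numbered pair of libraries, in log2(FPKM + 1), as deposited (filled symbols) and after removal of the GC trend (open symbols). GSN, FLII and CFL1 stay below 0 in every pair on both scales, while the PFN1 values approach 0 after the correction and AVIL and SVIL scatter to both sides.

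**Figure D4:**
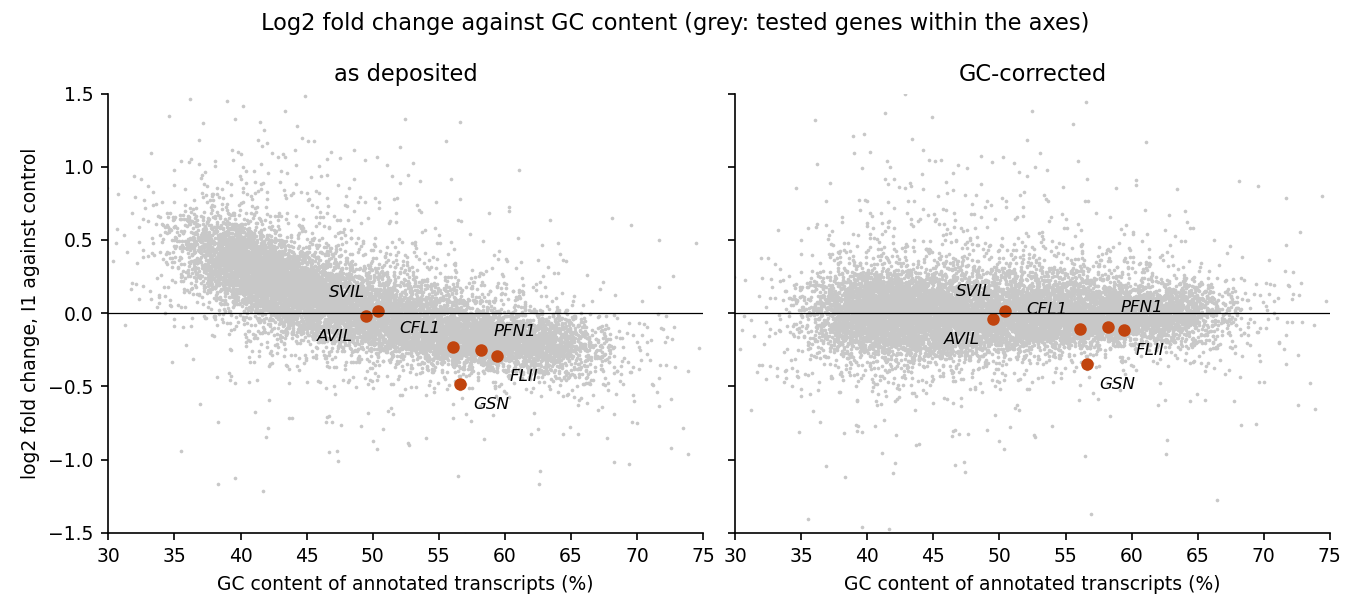
Log2 fold change of I1 against control (vertical axis) against the GC content of each gene's annotated transcripts (horizontal axis, %), as deposited (left) and GC-corrected (right), with tested genes in grey and the 6 tested members in colour. CFL1, PFN1 and FLII lie inside the sloping band of genes of like GC content, and GSN, at -0.48 and -0.34, lies at its lower edge in both panels.

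Within a library, ratios between members set out how their balance differed. GSN per CFL1, in FPKM, was 0.852, 0.690 and 0.774 in the controls and 0.789, 0.588 and 0.577 with I1, lower in each pair although the groups overlapped. PFN1 per CFL1 was nearly constant, at 1.36, 1.34 and 1.40 in the controls and 1.28, 1.39 and 1.38 with I1. FLII per GSN was 0.493, 0.463 and 0.478 in the controls against 0.520, 0.483 and 0.644 with I1, higher in each pair. In all 3 ratios the groups overlapped. Over the 6 libraries the log2 levels of CFL1 and PFN1 went together (Pearson r 0.979, a description over libraries that share the group difference and the GC trend), as did those of GSN and FLII (r 0.837), and GSN and CFL1 less closely (r 0.661). The 8 members summed to 281, 268 and 264 FPKM in the controls and 211, 242 and 211 with I1, which was 0.0948% to 0.0963% and 0.0759% to 0.0884% of all FPKM.

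The 3 genes most like GSN across the 6 libraries, by the Pearson correlation of log2(FPKM + 1) over 6927 candidates, were BCAT2 (r 0.994), the mitochondrial branched-chain aminotransferase, SCAND1 (r 0.992), a SCAN-domain protein, and VASP (r 0.991), which speeds filament growth at barbed ends. With 6 libraries high values are frequent, and 359 of the candidates exceeded 0.9. The 3 genes hold 60.8%, 63.9% and 60.2% GC.

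Reads shared with other genes may touch several members, because no source used here says whether counting took strand into account. Of the exon bases of CFL1, 19.0% lie opposite those of MUS81 and SNX32. The share was 5.59% for PFN1 (ENO3), 5.15% for AVIL (TSFM), 3.55% for SVIL (SVIL-AS1), 2.53% for GSN (GSN-AS1 and AL513122.2) and 0.619% for FLII (LLGL1). Processed copies of CFL1 and PFN1 also exist, and the values of both genes are uncertain to the extent that reads were split with them. Of these copies 3 of CFL1 reached at most 1.53 FPKM and 7 of PFN1 at most 2.56 FPKM. Summed per library, the CFL1 copies held 0.711 to 1.37 FPKM in the controls and 0.334 to 1.62 with I1. Those of PFN1 held 4.74 to 6.72 and 4.84 to 8.39 FPKM. These sums were small beside the levels of the parents, but less so beside their group differences.

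The rest of the actin system was read from 11 lists of 138 genes, none of them a member, of which 133 were analysed and 111 tested. By limma 0 of the 111 were called, and 7 had an unadjusted p under 0.05 (1140 of 11913 over all tested genes), among them GMFG, ARPC5, WAS, DIAPH2, FMNL2 and CORO1B, named after their values were seen. The smallest adjusted p was 0.467. Their fold changes lay on both sides, 55 below 0 and 56 above, with a median of 0.00 beside 0.03 for all tested genes. All I1 libraries lay below all controls for 16 of the 111 (8.74% of all tested genes did so) and above them for 13 (12.9% of all), and 39 were lower in all 3 pairs (25.8% of all).

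The actins themselves are the substrate of the members. ACTB had 1231 ± 126 FPKM in the controls and 1104 ± 178 with I1, and ACTG1 had 1377 ± 338 and 1241 ± 200. Neither group difference went beyond the spread. By same-numbered pairs, however, ACTB was lower with I1 in every pair, as were 25.8% of all tested genes. ACTG1 was higher with I1 in pair 3 (1284 in the control and 1307 FPKM). Their log2 fold changes of -0.16 and -0.13 (SE 0.172 and 0.216) were 0.01 for both after the GC correction. Among the 13 tested monomer-binding and cofilin-like genes 0 passed, 8 were below 0 and the median was -0.10 (GC-corrected -0.08). TMSB4X, the thymosin that holds monomers in reserve, was the highest at 679 ± 51.9 and 636 ± 63.6 FPKM. GMFG, a glia maturation factor that takes branches apart, had 113 ± 6.83 and 92.7 ± 5.49 FPKM, and its difference of -0.29 was -0.28 after the correction. TWF1 (twinfilin, which binds monomers and barbed ends) had 4.82 ± 2.56 and 7.55 ± 2.33 FPKM, a value of 0.63 that was 0.28 once corrected.

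Some close relatives of the members fall in that list and were picked out after their values were seen. VILL, a villin-like gene of the gelsolin family, had 4.64 ± 0.895 FPKM in the controls and 3.54 ± 0.613 with I1, which on the log2 scale is a difference of -0.31 that was -0.13 after the GC correction. DSTN, the second depolymerising factor beside CFL1, had 21.1 ± 5.99 and 27.0 ± 1.29 FPKM, a value of 0.38 opposite in sign to CFL1, in transcripts of 42.0% GC, and 0.14 after the correction. The muscle form CFL2 was low, at 1.21 ± 0.554 and 1.56 ± 0.242 FPKM, and PFN2 was not tested, at 0.136 ± 0.0165 and 0.0813 ± 0.0557. WDR1, which helps cofilin to take filaments apart, had 22.7 ± 0.362 and 19.5 ± 1.57 FPKM, and CAP1, which recycles cofilin-bound monomers, had 40.8 ± 1.30 and 36.0 ± 1.12. For both of them all I1 libraries lay below all controls, with differences of -0.21 for WDR1 and -0.18 for CAP1 that were -0.08 and -0.19 after the GC correction.

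The list of cofilin control held kinases and phosphatases of cofilin and the upstream kinases PAK1, PAK2, ROCK1 and ROCK2. Of its 12 tested genes 6 were below 0 and 6 above, with 0 called and a median of -0.02 (GC-corrected 0.03). As deposited, the 6 above 0 were those upstream kinases with SSH1 and SSH2, and the 6 below 0 were kinases and phosphatases of cofilin itself. That split was seen after the values, and 45.5% of all tested genes were below 0. After the GC correction LIMK1 and TESK1 were above 0, at 0.10 and 0.04, and 5 of the 12 were below 0. Nothing is read from these signs. PAK2, a kinase upstream of LIM kinase, had 53.9 ± 17.5 and 76.0 ± 8.23 FPKM, with all I1 libraries above the controls and a value of 0.54 that was 0.23 after correction. LIMK2, which phosphorylates and so silences cofilin, had 5.86 ± 0.518 and 4.72 ± 0.7495 FPKM, and its log2 difference of -0.27 was -0.16 once corrected. The lowest value of the list, picked out after the values were seen, was -0.83 (GC-corrected -0.63) for PDXP, a phosphatase that reactivates cofilin. PDXP had 2.71 ± 2.32 and 0.862 ± 0.297 FPKM with overlapping groups, under the 5 FPKM average set for named genes. Its controls were 5.34, 0.943 and 1.85 FPKM, the highest being control replicate 1, the library that stood apart. Capping protein competes with gelsolin for barbed ends. The capping list also holds genes of other roles, such as TMOD2 and TMOD3 (tropomodulins, which cap the other end) and CRACR2A, each above 0. Of the 10 tested genes of this list 0 were called, 7 were above 0 and the median was 0.24. It was -0.01 after the GC correction, in a list whose median GC content was 42.0%. CAPZB (the beta subunit of capping protein) had 74.2 ± 7.63 and 69.1 ± 7.10 FPKM. ADD3 (an adducin) had 5.39 ± 1.68 and 7.57 ± 0.778, and CARMIL2, a regulator of capping protein, 6.44 ± 3.60 and 4.70 ± 1.87. The log2 differences of these 3 genes were -0.10, 0.46 and -0.33, and -0.04, 0.22 and -0.11 after the GC correction.

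Among the 22 tested genes of the Arp2/3 complex and its activators, which start branched filaments, 0 were called and the median was 0.05 (GC-corrected -0.07). ACTR2, a core subunit, had 110 ± 33.8 and 144 ± 16.8 FPKM. WAS, the blood-cell activator mutated in Wiskott-Aldrich syndrome, had 28.0 ± 4.73 and 21.03 ± 1.75. Their log2 differences were 0.43 and -0.38, and 0.13 and -0.20 after the GC correction, in transcripts of 40.4% and 60.2% GC. The 10 tested formins and Ena/VASP genes, to which profilin delivers monomers, had 0 calls and a median of -0.03 (GC-corrected 0.05). DIAPH1 was the highest of them, at 67.4 ± 4.74 and 71.2 ± 1.66 FPKM, DIAPH2 had 9.19 ± 2.16 and 12.2 ± 0.323, and VASP had 34.8 ± 2.61 and 28.7 ± 2.35. Both formins were higher with I1 in mean and VASP lower, with log2 differences of 0.08, 0.40 and -0.27 that were 0.09, 0.10 and -0.09 after the GC correction.

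The 4 tested coronins had 0 calls and a median of -0.18 (GC-corrected -0.07). CORO1A, the leukocyte coronin, had 69.1 ± 18.0 and 54.4 ± 6.57 FPKM, CORO1B had 10.7 ± 1.75 and 7.88 ± 1.51, and CORO1C had 17.3 ± 2.52 and 17.6 ± 1.45. In that order the log2 differences were -0.32, -0.40 and 0.03, and -0.11, -0.18 and -0.04 after the GC correction. Among the 13 cross-linkers, 0 called and with a median of -0.08 (GC-corrected -0.03), MSN (moesin, a membrane linker) had 210 ± 18.6 and 203 ± 8.59 FPKM. FSCN1, the bundling protein fascin, had 174 ± 7.70 and 146 ± 16.5, and PLS3, a plastin, had 18.0 ± 3.86 and 19.8 ± 2.23. FSCN1 had all I1 libraries below all controls, with a value of -0.25 that was -0.03 after correction. For MSN the log2 difference was -0.04 and -0.06 once corrected, and for PLS3 it was 0.15 and -0.16 once corrected.

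The 7 tested tropomyosin and myosin genes also had 0 calls, with a median of 0.02 (GC-corrected 0.10). MYH9, the heavy chain of non-muscle myosin II, had 129 ± 15.6 and 130 ± 12.2 FPKM. TPM4 (a tropomyosin) had 30.3 ± 5.87 and 37.3 ± 0.686, and MYL6 (a myosin light chain) 15.4 ± 0.854 and 13.7 ± 1.79. In that order the log2 differences were 0.02, 0.31 and -0.16, and 0.18, 0.25 and -0.10 after the GC correction. The coactivators MRTFA and MRTFB read the pool of free actin, and with serum response factor they drive many actin genes. The list built around serum response factor also holds genes of other roles, such as ELK1, ELK4 and VCL. The 8 tested genes of that list had 0 calls and a median of 0.13 (GC-corrected 0.04). SRF had 27.5 ± 5.61 and 21.5 ± 1.19 FPKM, and ELK4 had 4.04 ± 1.44 and 6.14 ± 1.08. Their log2 differences were -0.33 and 0.54, and -0.14 and 0.30 after the GC correction.

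**Figure D5:**
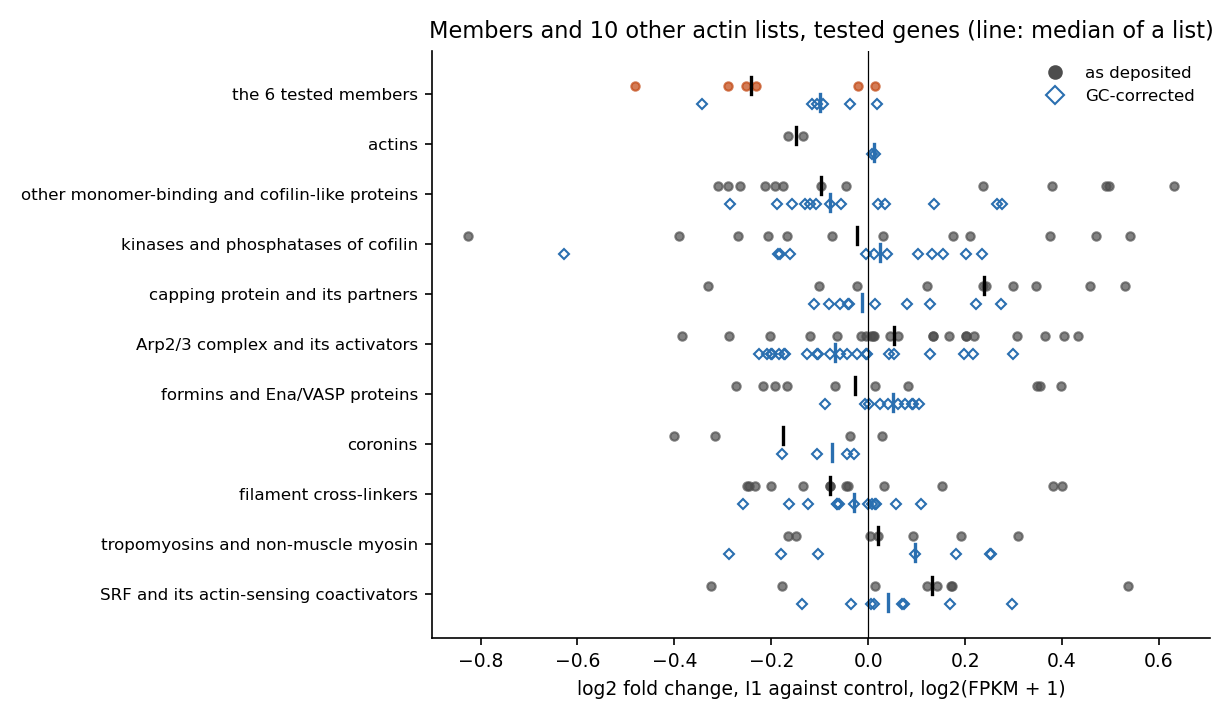
Log2 fold change of I1 against control, on log2(FPKM + 1), for the 6 tested members and for each tested gene of 10 other actin lists, as deposited (filled circles) and GC-corrected (open diamonds), with the median of each list as a line. The members' median stands at -0.24 and at -0.10 once corrected, and the medians of these 10 lists range from -0.18 to 0.24 as deposited and come closer to 0 after the correction in 6 of them.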

How the data were processed

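Per the labels' protocols, the 6 Kasumi-1 libraries were TruSeq Stranded mRNA libraries of Trizol-extracted RNA. The authors deposited 1 table of FPKM values per gene, by Ensembl identifier. The submitters' processing notes name the build hg38 and the tools HISAT2, HTSeq, Cufflinks and Trimmomatic. What each tool did, its version, the gene annotation and any use of strand: not given in the sources used here. Although the table is named for different lines and a different compound, it was used because its 6 column names match these samples' titles.

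The members and all lists were chosen with earlier results of these data known. Symbols, exon lengths and GC content came from GENCODE v29. With those lengths, 96.8% of 18866 low genes had whole reads (within 0.05) in all libraries, which gave the library size behind each column and the members' reads. These intervals and the limit at 0 reads cover counting error only. The test was limma 3.58.1 (R 4.3.3) on log2(FPKM + 1) with an intensity trend, 2-sided, for genes of at least 1 FPKM in at least 3 libraries, adjusted by Benjamini-Hochberg over all 11913. A call needed an adjusted p under 0.05 and a difference of 1 or more on the log2 scale, in either direction. The code was tested on simulated data. The GC correction removed a loess trend (span 0.3) from each library.

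Named genes were all members and, per other list, the one with the highest mean and those with the greatest difference in each direction among tested genes of at least 5 FPKM on average. The 3 genes most like GSN were added. Of the 11 other lists, 1 enters the totals only and is not reported here. Same-numbered libraries deviated together (r = 0.412 to 0.476), so the numbers were taken as pairs, on the data's evidence alone.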

Additional observations from a re-analysis of the deposited data

How the results depend on the processing

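The 4 genes called over the whole table became 0 with a pseudocount of 0.1 (1076 genes at an unadjusted p under 0.05) or 0.5 (1104), 0 with no filter (1726), 0 with a mean of at least 5 FPKM (685) and 0 with the GC correction (591). They became 2 with quantile normalization, 14 with array weights and 0 to 2 when 1 library was left out (479 to 2090 genes at an unadjusted p under 0.05). The replicate block gave 6 and the replicate block with the GC correction 1. In all 17 alternatives 0 of the members and 0 of the other actin genes were called by limma. The cause of these shifts was not tested.

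GSN stayed lower with I1 in all 17, from -0.56 (without I1 replicate 1) to -0.34 (GC correction), with an adjusted p of 0.128 to 0.968. FLII ranged from -0.36 to -0.12, CFL1 from -0.32 to -0.11 and PFN1 from -0.36 to -0.09. The median of the tested members was -0.10 with the GC correction and with the replicate block and GC correction, and -0.27 to -0.16 when 1 library was left out. SVIL turned to -0.0241 (median-of-ratios), -0.0328 (trimmed-mean), -0.0836 (quantile) and -0.0675 (array weights), and ranged from -0.0516 to 0.13 when 1 library was left out. AVIL ranged from -0.15 to 0.17 in the same way, and was -0.32 with array weights and -0.15 with quantile normalization. The log2 ratio of the summed FPKM stayed between -0.36 and -0.26. With the principal transcript as the length, chosen after seeing the data, GSN was in place 2, CFL1 in place 1 and PFN1 in place 3 by the mean over all 6 libraries. In the controls alone GSN (243) came before CFL1 (237), and with I1 CFL1 (202) came before GSN (173). CAPG and VIL1 rest on few reads. For AVIL the counting interval of the I1 to control ratio was 0.817 to 1.11, while its libraries held 68 to 181 reads.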
